A study of Mus musculus with 132 samples.

Results

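The metaphyseal shell is the cortical tube of the tibia just below the knee, the segment nearest the growth plate. Its early response to mechanical load was followed in 10 libraries, the loaded and the control shell of 5 mice killed 1 h after 1 bout. They are 5 of the 66 pairs of loaded and control libraries in the series, which come from 3 cortical segments of each of 22 mice. Members were chosen by their titles alone, as the libraries labelled metaphyseal shell and 1h, and the 2 limbs of a mouse were paired by the mouse number in those titles. All mice were C57Bl/6J females, 10 weeks old. In the loaded group the left tibia was compressed in vivo for 1200 cycles at 4 Hz to a peak load of 9 N. The control group was the other tibia of the same animals, so both groups carry whatever a bout does to the whole animal, and no mouse without loading was included. Other mice of the same strain, sex and age were studied in the shell at 3 h and at 24 h after 1 bout (4 mice each), after 7 daily bouts (7d, 4 mice) and on day 8 after 5 daily bouts (5d, 5 mice), always against their own other tibia. The proximal diaphysis and the mid-diaphysis of the same 5 mice at 1 h served for comparison. Whole pieces of cortex were pulverised after cancellous bone had been removed, and messenger RNA was sequenced from its 3′ ends. In such bulk samples, fewer cells of a type and less RNA per cell cannot be told apart.

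Bone cells sense strain mainly through osteocytes, which lie in the matrix and signal to cells on the bone surface. Within minutes of a stimulus, calcium, cAMP and MAP kinase signals act on transcription factors that are already present, and these switch on immediate early genes such as Fos, Fosb, Junb, Egr1 and Atf3 without new protein synthesis. Phosphatases such as Dusp1 and adaptor proteins such as Spry2 are induced by the same signals and damp them. The fibrous periosteum on the outer surface, with its matrix proteins periostin, asporin, fibromodulin and thrombospondin, covers the cortex and holds precursors of bone-forming cells.

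The 10 libraries held 903250 to 1986539 reads assigned to genes, and 13534 to 14230 genes had at least 1 read. Osteocyte genes summed to between 3660 and 4810 normalized counts in loaded shells and between 3830 and 4439 in control shells, and Col1a1, the main collagen of bone, lay between 51758 and 134922 in loaded and between 45245 and 126700 in control shells, so the material was rich in bone transcripts. It also held marrow and cartilage RNA. Neutrophil genes summed to 18852 to 27580 normalized counts in loaded shells and 21390 to 25480 in control shells. Chondrocyte genes summed to 4796 to 7807 in loaded and 5321 to 9924 in control shells. Muscle RNA was uneven between limbs. The 16 skeletal muscle genes, all found in the table, summed to 20516, 5089, 13073, 3077 and 1457 in the loaded shells of mice 1 to 5, against 3605, 6090, 9109, 13760 and 5556 in their control shells. Loaded shells were therefore higher in muscle RNA in mice 1 and 3 and lower in mice 2, 4 and 5. The 8 mesothelial markers, high in some mid-diaphysis libraries, summed to at most 14.1 in loaded shells and 22.7 in control shells, and Upk3b was at 0 in all 10 libraries.

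No gene passed the test across the transcriptome. Of 11371 genes with a mean normalized count of at least 5, limma called 0 (0%) at an adjusted p under 0.05, with a lowest adjusted p of 0.163, and edgeR called 0 (0%), with a lowest of 0.108. At an unadjusted p under 0.05 limma counted 554 genes (4.87% of those tested) and edgeR 557 (4.9%), 480 of them shared. Of the 554, 194 were higher in loaded shells (1.71% of all tested) and 360 lower (3.17%). The share of higher genes among them was 35.0% with the authors' scaling and 50.4% with scaling to the quantile at 75%, so the split between directions depended on the scaling. The median log2 difference of all tested genes was -0.02, and the 10% and 90% quantiles were -0.34 and 0.28. With 5 pairs, a permutation test of a single gene cannot go below an exact p of 0.0625. The values below are therefore differences that did not pass, and the genes at the top of the order are described by their levels in each mouse.

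The gene with the smallest p was an immediate early gene. Egr1, a zinc finger transcription factor and one of the most widely used markers of recent cell stimulation, had 158, 173, 188, 128 and 218 normalized counts in the loaded shells of mice 1 to 5, against 98.3, 102, 87.3, 79.9 and 78.5 in their control shells. All 5 loaded shells lay above all 5 control shells, which was so for 18 of 11371 genes (0.158%). The log2 difference was 0.93 ± 0.15 (SE, n = 5 pairs), with an unadjusted p of 1.43e-05, the lowest of all genes, and an adjusted p of 0.163 by limma. Each SE here is the moderated one of limma, drawn toward a trend over all genes. It is not the spread of the 5 pairs alone. The gene lies at chr18:34859823-34864984 (mm10, plus strand) and overlaps no other gene in the annotation.

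Fosb, a partner of Jun proteins in the transcription factor AP-1, had the highest log2 difference of all tested genes. Its levels were 5.63, 6.45, 18.8, 16.96 and 28.0 normalized counts in loaded shells, against 1.64, 4.54, 1.66, 1.19 and 2.91 in control shells, again without overlap. Behind these stood 84 reads in the 5 loaded libraries and 12 in the 5 control libraries, so each level is coarse. The lowest loaded and the highest control shell both held 4 reads, so the gap between the groups came from scaling. On the log2 scale with 1 added, the difference was 2.12 ± 0.45 (SE, n = 5 pairs; limma, adjusted p = 0.541). It was 0.43 in mouse 2, 1.33 in mouse 1, and between 2.89 and 3.03 in mice 3, 4 and 5. Fosb lies at chr7:19302696-19310051 (minus strand).

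Junb, which pairs with Fos proteins, had 69.001, 96.8, 97.8, 96.1 and 113.3 normalized counts in loaded shells, against 55.7, 73.7, 67.4, 53.7 and 63.9 in control shells. It was higher in the loaded limb of 5 of 5 mice, by 0.57 ± 0.15 on the log2 scale (limma, adjusted p = 0.759), although the groups overlapped. Atf3, a stress-induced factor of the ATF and CREB family, had 11.3, 8.61, 3.76, 6.46 and 15.5 against 2.46, 2.27, 2.49, 5.96 and 0.969. That too was higher in 5 of 5 mice (1.40 ± 0.47), but by only 0.10 in mouse 4. Fos itself had 39.4, 15.1, 12.5, 10.5 and 22.1 in loaded shells against 6.55, 9.07, 18.3, 7.16 and 6.78 in control shells, and was lower in the loaded limb of mouse 3. The mean difference of Fos was 0.93 ± 0.36, and 0.56 without mouse 1. Dusp1, the nuclear MAP kinase phosphatase, had 83.1, 74.2, 41.4, 65.4 and 120 in loaded shells, against 53.2, 54.4, 36.6, 63.2 and 59.1 in control shells, a difference of 0.46 ± 0.17 that had the same sign in 5 of 5 mice and was near 0 in mouse 4. Junb overlaps Prdx2 and Dusp1 overlaps Ergic1 on the opposite strand, besides unnamed models on its own, and reads of such pairs cannot be told apart where counting by strand is not stated.

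**Figure D1:**
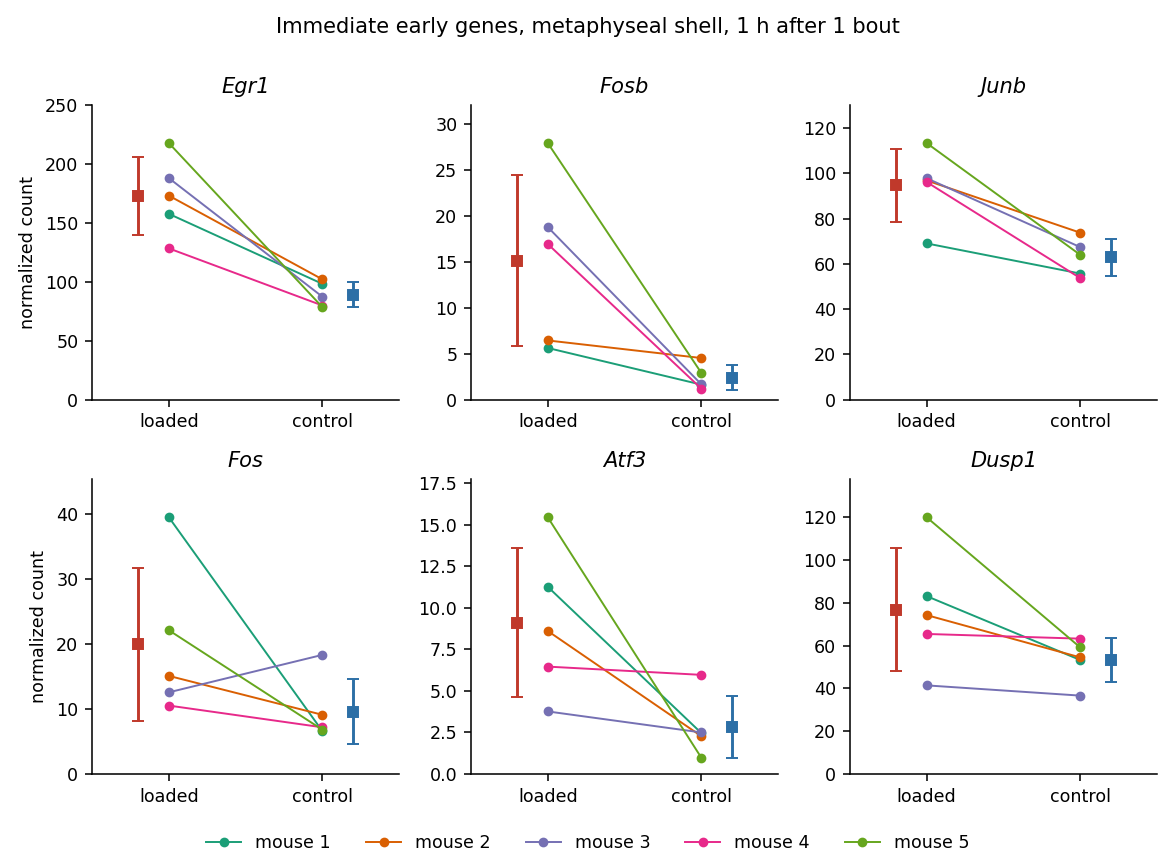
Normalized counts (vertical axes, each from 0) of 6 immediate early genes in loaded and control shells at 1 h; a line joins the 2 limbs of a mouse, and squares with bars give the mean ± SD of 5 mice. The loaded and control points of Egr1 and Fosb do not overlap, although for Fosb the gap came from scaling of equal reads. The line of Fos slopes the other way in mouse 3.

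Of 33 immediate early genes listed, 32 were in the table and 26 were tested. Loaded shells were higher on average for 19 of the 26, against 46.1% of all tested genes. The median log2 difference of the list was 0.20, against -0.02 over all genes. An unadjusted p under 0.05 was reached by 6, each higher in loaded shells (1.71% of all tested genes), namely Egr1, Fosb, Junb, Atf3, Fos and Dusp1, and 0 passed after adjustment. In 5 of 5 mice 6 members were higher, against 3.03% of all tested genes, those just named other than Fos, together with Ier2 at a mean of 0.19, or 0.088 without mouse 2. Other members stayed near 0, among them Fosl2 (-0.01), Jun (0.13), Zfp36 (0.02) and Klf6 (-0.06), and the lowest was Srf at -0.18. Fosl1, Egr2, Egr3, Arc, Nr4a3 and Maff were below the filter, and Nr4a3 had 0 reads in all 10 libraries. Arc, an activity-regulated cytoskeletal gene known from neurons, had only 21 reads in loaded and 6 in control libraries. Its levels were 2.82 to 5.89 normalized counts in loaded shells and 0 to 2.27 in control shells. The lowest loaded and the highest control shell both held 2 reads, so the gap between these groups came from scaling.

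Genes that feed back on MAP kinase signalling were also examined. Of 12 tested members of 19, 10 lay above 0, against 46.1% of all tested genes, and the median was 0.21. An unadjusted p under 0.05, always with higher loaded shells, was reached by 3, namely Dusp1, Dusp16 and Spry2, against 1.71% of all tested genes, and 0 passed after adjustment. Dusp1 is in both lists and was already counted among the immediate early genes. Spry2, an inhibitor of receptor tyrosine kinase signalling, had 11.3, 20.4, 10.03, 16.96 and 15.4 normalized counts in loaded shells, against 10.7, 12.5, 9.98, 4.77 and 6.78 in control shells (0.69 ± 0.31; limma, adjusted p = 0.959). Its levels in mice 1 and 3 were almost equal between the limbs, and the difference was 0.46 without mouse 4. Dusp16, a phosphatase of the stress kinase JNK, was higher in 4 of 5 mice, by 0.51 ± 0.23.

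The windows before the starts of 5 of the 6 early genes with an unadjusted p under 0.05 are shown, to set their sequences side by side. They come from RefSeq (GRCm38.p6), and each run is the 250 bases before the annotated start, on the gene's own strand. Capitals mark the searched motifs, the CRE site TGACGTCA bound by CREB and ATF proteins, its shorter core TGACG, the EGR site GCGGGGGCG and the TATA box TATAAA, each searched on both strands. Fosb is at chr7:19310046-19310295 (minus), Fos at chr12:85473640-85473889 (plus), Junb at chr8:84978749-84978998 (minus), Atf3 at chr1:191183334-191183583 (minus) and Dusp1 at chr17:26508473-26508722 (minus).
Fosb: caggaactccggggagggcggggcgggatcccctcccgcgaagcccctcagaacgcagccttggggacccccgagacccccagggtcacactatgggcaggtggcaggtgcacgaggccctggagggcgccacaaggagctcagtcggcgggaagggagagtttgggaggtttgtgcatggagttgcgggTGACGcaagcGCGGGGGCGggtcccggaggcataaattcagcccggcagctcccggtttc
Fos: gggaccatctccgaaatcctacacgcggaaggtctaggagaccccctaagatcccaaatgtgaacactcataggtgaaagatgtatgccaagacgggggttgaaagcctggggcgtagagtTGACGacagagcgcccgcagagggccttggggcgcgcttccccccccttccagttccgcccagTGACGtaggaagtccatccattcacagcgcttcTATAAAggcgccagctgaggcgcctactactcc
Junb: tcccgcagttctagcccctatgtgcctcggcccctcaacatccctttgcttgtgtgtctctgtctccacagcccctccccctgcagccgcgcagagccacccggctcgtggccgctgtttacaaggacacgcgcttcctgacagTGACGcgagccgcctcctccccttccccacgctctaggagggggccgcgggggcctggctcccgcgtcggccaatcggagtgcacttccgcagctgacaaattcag
Atf3: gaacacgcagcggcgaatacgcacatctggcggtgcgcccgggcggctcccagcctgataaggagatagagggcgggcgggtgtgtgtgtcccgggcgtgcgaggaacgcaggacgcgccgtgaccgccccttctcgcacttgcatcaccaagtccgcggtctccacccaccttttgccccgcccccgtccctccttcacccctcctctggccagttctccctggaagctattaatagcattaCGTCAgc
Dusp1: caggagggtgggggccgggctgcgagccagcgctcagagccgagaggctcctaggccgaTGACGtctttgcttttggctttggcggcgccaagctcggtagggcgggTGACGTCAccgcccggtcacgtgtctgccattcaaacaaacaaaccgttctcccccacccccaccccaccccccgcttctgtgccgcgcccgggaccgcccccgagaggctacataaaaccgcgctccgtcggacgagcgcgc

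Each of the 5 holds a core TGACG, read from the other strand as CGTCA in Atf3. In Fosb the core spans bases -60 to -56 and an EGR site bases -50 to -42 before the start. Fos has cores at -129 to -125 and -66 to -62 and a TATA box at -33 to -28, and Dusp1 has the full CRE at -143 to -136, which contains a core on each strand. Promoter entries matched 21 of the 26 tested immediate early genes, with 24 windows of 300 bases. A core was present in 66.7% of these windows, in 13 genes, against 20.8% of all 32851 windows, and an EGR site in 29.2%, against 2.91%. A full CRE was found in 12.5% (Btg2, Dusp1 and Ppp1r15a), against 1.79%, the AP-1 motif TGANTCA in 4.17%, against 7.81%, and the CArG box bound by SRF in 8.33%, against 1.63%. Of the periosteal and chondrocyte genes described next, 8 of 14 and 8 of 12 had entries, with 9 windows each. The core was in 11.1% of the windows of either list and the EGR site in 0. TATA boxes were in 6 of the 24 immediate early windows, in 4 of the 9 periosteal (44.4%; Aspn, Col3a1, Postn and Thbs2) and in 2 of the 9 chondrocyte windows (22.2%), against 13.6% of all windows. These are letter matches and not measured binding, and the windows set beside them were not matched for base composition.

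Among the 10 genes with the smallest p that were lower in 5 of 5 mice, 6 were matrix genes of fibrous tissue and 2 of cartilage. Thbs2, a thrombospondin that regulates collagen fibril assembly, had 32.4, 59.2, 50.1, 67.0 and 71.4 normalized counts in the loaded shells of mice 1 to 5, against 63.9, 95.3, 80.7, 108.5 and 128.8 in control shells. The groups overlapped, as for every member of the periosteal and cartilage lists, while 13 of all tested genes lay wholly below (0.114%). Within each mouse the loaded shell was lower by a very even amount, between 0.67 and 0.96 on the log2 scale. The mean log2 difference was -0.77 ± 0.14 (moderated SE, n = 5 pairs; limma, adjusted p = 0.345). Thbs2 lies at chr17:14665500-14694235 (minus strand).

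Fibromodulin (Fmod), a small proteoglycan of collagen fibrils, had 94.3, 190.4, 191, 102.6 and 113.3 normalized counts in loaded shells, against 227, 327, 235, 223 and 165 in control shells (-0.80 ± 0.15; limma, adjusted p = 0.345). Asporin (Aspn), a relative of fibromodulin found in periosteum and ligament, had 56.3, 76.4, 60.2, 50.1 and 76.5 against 72.9, 111.2, 99.8, 159 and 244 (-0.99 ± 0.20; limma, adjusted p = 0.428). Loaded shells had a narrow range of asporin levels, and the control shells of mice 4 and 5 were the highest. Periostin (Postn), a matrix protein named for the periosteum, had 158, 186, 109.1, 200.3 and 341 against 178, 242, 262, 503 and 609 (-0.79 ± 0.17; limma, adjusted p = 0.541). Aspn overlaps Cenpp on the opposite strand.

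**Figure D2:**
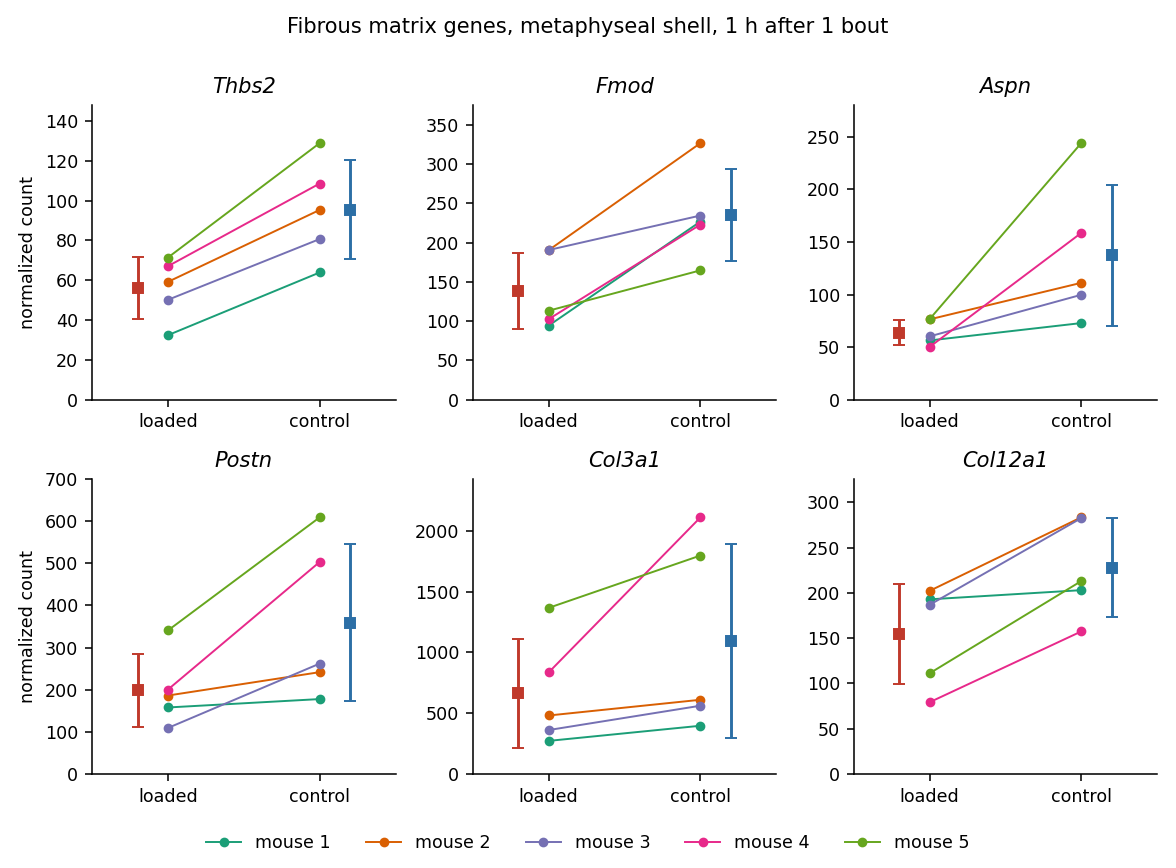
Normalized counts (vertical axes, each from 0) of 6 fibrous matrix genes in loaded and control shells at 1 h; a line joins the 2 limbs of a mouse, and squares with bars give the mean ± SD of 5 mice. In each panel all 5 lines run upward to the control limb, while the groups overlap.

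Of the 16 periosteum, tendon and fibroblast genes listed, all were in the table and 14 were tested. A negative difference was seen for 12 of the 14, against 53.9% of all tested genes, and the median was -0.63. An unadjusted p under 0.05 was reached by 8, each lower in loaded shells, against 3.17% of all tested genes, and 8 were lower in 5 of 5 mice, against 3.75%. The 2 sets were not the same. Those lower in 5 of 5 mice included the collagens Col3a1 (-0.65 ± 0.15) and Col12a1 (-0.61 ± 0.15), the tenocyte factor Mkx (-0.82 ± 0.40) and Lrrc15 (-0.49 ± 0.17). Thbs4, a thrombospondin of tendon, had the lowest log2 difference of all tested genes, -1.69 ± 0.40 (limma, adjusted p = 0.647). It was lower in 4 of 5 mice, and its control levels of 54.9 and 78.5 in mice 4 and 5 stood far above the 6.65 to 14.8 of the others. Of the broadly expressed fibroblast genes, Dcn (0.04), Lum (-0.17) and Pdgfra (-0.05) were nearer 0, while Col14a1 was positive at 0.28. The summed level of the list was 2735, 3455, 2738, 4685 and 4765 in loaded shells, against 2857, 3580, 3264, 6580 and 7344 in control shells. It was lower in the loaded shell of each of the 5 mice, and by most in mice 4 and 5. Muscle RNA differed between these limbs as given above. With the mean muscle level as a covariate, asporin was at -0.91 (limma, adjusted p = 0.0302) and Egr1 at 0.92 (limma, adjusted p = 0.0302). These were the 2 genes that passed in that fit. Whether muscle RNA accounts for any of the differences was not tested. Over all alternatives the adjusted p of either gene lay between 0.0302 and 1.00 (limma or edgeR). Ogn (-0.66 ± 0.19), Tnn (-0.54 ± 0.14) and Col16a1 (-0.53 ± 0.13), picked after their values were seen, are matrix genes outside the list that were also lower in 5 of 5 mice.

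Most cartilage genes tested had negative differences, but their summed level did not differ in one direction. Of 12 tested members of 17, 11 were negative, against 53.9% of all tested genes, and the median was -0.82. An unadjusted p under 0.05 was reached by 7, each lower in loaded shells, against 3.17% of all tested genes, and 0 passed after adjustment. Col9a2, a chain of the collagen on the surface of cartilage fibrils, had 2.82, 7.53, 26.3, 4.85 and 6.62 normalized counts in loaded shells, against 13.9, 46.5, 74.0, 9.54 and 9.69 in control shells (-1.45 ± 0.32; limma, adjusted p = 0.586). Chondroadherin (Chad) had 4.22, 12.9, 21.3, 20.2 and 8.83 against 25.4, 19.3, 44.1, 28.6 and 46.5 (-1.33 ± 0.30; limma, adjusted p = 0.640). Aggrecan (Acan) and Hapln1, the proteoglycan and its link protein, were also lower in 5 of 5 mice, with differences of -0.82 and -0.99. Their levels were low, with 45 reads of Col9a2 in loaded and 165 in control libraries. The more abundant Col2a1 differed by -0.26 ± 0.14 and Col10a1, the hypertrophic collagen, by -0.39 ± 0.37. The summed level of the 16 members in the table was lower in the loaded shell of 3 of 5 mice, with medians of 6403 in loaded and 5543 in control shells, and Epyc was at 0 throughout. Chad overlaps Acsf2 on the opposite strand.

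Other genes named by the rule completed the order. Among those higher in 5 of 5 mice, Adamts1, a secreted metalloprotease, had 67.6, 62.4, 82.7, 65.4 and 68.4 normalized counts in loaded shells, against 43.4, 45.4, 62.4, 44.1 and 48.4 in control shells. Its difference of 0.51 ± 0.15 lay between 0.40 and 0.63 in each mouse (limma, adjusted p = 0.959), and the lowest loaded shell was only just above the highest control shell. Il10ra, the receptor of interleukin 10, differed by 0.65 ± 0.19, Taf7, a subunit of the general factor TFIID, by 0.73 ± 0.21, Ppfia2 by 0.56 ± 0.16, Baz2a by 0.47 ± 0.14, Rsbn1 by 0.46 ± 0.14 and Ywhaz, a phosphoserine-binding adaptor, by 0.41 ± 0.12. Lower in 5 of 5 mice were also Pdlim2, a PDZ and LIM domain protein (-0.57 ± 0.13), and Pigt, which helps to attach GPI anchors (-0.79 ± 0.18).

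Genes of bone cells showed small differences. Of 16 tested osteocyte genes 9 were positive and of 19 osteoblast genes 12, against 46.1% of all tested genes, with medians of 0.03 and 0.06. Sost, the osteocyte inhibitor of Wnt signalling, had 137, 110.8, 171, 298 and 217 normalized counts in loaded shells, against 175, 168, 260.3, 259 and 93.96 in control shells. The limbs differed in both directions, lower in mice 1, 2 and 3 and higher in mice 4 and 5, for a mean of -0.03 ± 0.21. Dmp1, a mineral-regulating osteocyte protein, was higher in 4 of 5 mice (0.34 ± 0.15). Col1a1 was higher in 5 of 5 mice (0.25 ± 0.28) and Bglap, which encodes osteocalcin, in 4 of 5 (0.28 ± 0.15). Without mouse 5 these were 0.16 for Col1a1 and 0.14 for Bglap. Tnfsf11, which encodes the osteoclast factor RANKL, was higher in 5 of 5 mice (0.91 ± 0.38). It had 61 reads in loaded and 22 in control libraries, of which 34 came from the loaded shell of mouse 5. Mouse 1 had 2 reads in either limb, so its higher loaded level came from scaling. Of 15 tested osteoclast genes 13 were negative, against 53.9% of all tested genes, with a median of -0.26, and 0 passed. The values were -0.26 for Mmp9, -0.42 for Dcstamp and -0.26 for Acp5, the last -0.14 without mouse 2 and -0.46 without mouse 5.

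Ligands and inhibitors outside the early genes were mixed. Of all tested genes 53.9% had a negative and 46.1% a positive difference, and 3.75% were lower in 5 of 5 mice. Bmp2, a ligand that promotes bone formation, had 71.8, 75.3, 51.4, 105.8 and 66.9 normalized counts in loaded shells, against 43.4, 49.9, 39.1, 51.3 and 76.5 in control shells, higher in 4 of 5 mice (0.50 ± 0.18), while 15 of the 23 tested genes of the BMP and TGF-beta list were negative. Wnt1, a ligand whose loss causes brittle bone, had 0, 2, 2, 4 and 6 reads in loaded shells and 0 reads in all 5 control shells, too few to be tested. Of 16 tested Wnt ligands, receptors and readouts 11 were negative, including the transcription factor Lef1, lower in 5 of 5 mice (-1.0 ± 0.31), and the co-receptor Lrp5 (-0.57 ± 0.23). Secreted Wnt antagonists were negative in 6 of 8, with Sfrp4 at -0.60 ± 0.26. Lrp5 was at -0.28 without mouse 5, and Sfrp4 at -0.35 without mouse 4. Among early cytokines and NF-kB feedback genes 10 of 13 were positive with a median of 0.09, with Relb at 0.68 ± 0.23 and Il1b at 0.61 ± 0.27 (0.38 without mouse 1 and 0.41 without mouse 2), and Cxcl1, Cxcl2, Ccl2, Il6 and Lif were below the filter. Interferon genes were negative in 8 of 12, with Isg15 (-0.50 ± 0.14) and Bst2 (-0.45 ± 0.15) lower in 5 of 5 mice. Ribosomal protein genes (median 0.01), oxidative phosphorylation genes (-0.02) and cell cycle genes (-0.03) lay at the median of all genes.

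**Figure D3:**
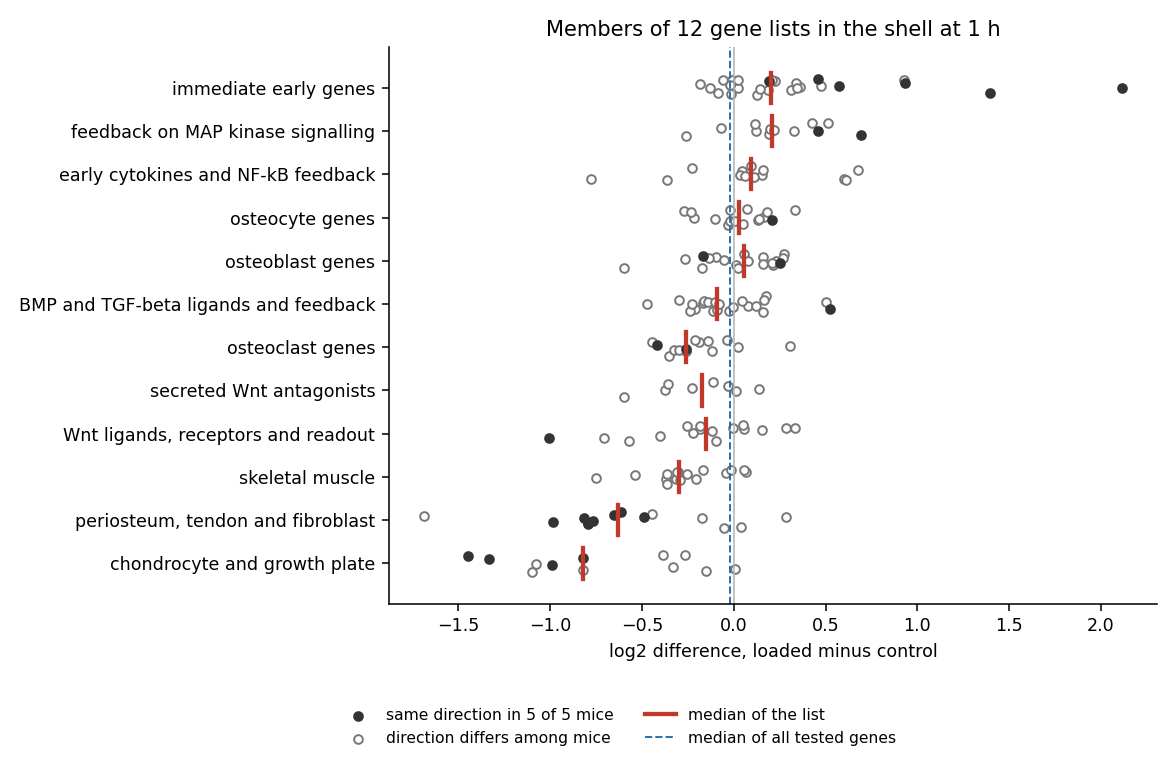
Log2 difference between loaded and control shells at 1 h (horizontal axis) for the tested members of 12 gene lists; filled points had the same direction in 5 of 5 mice, red bars are list medians and the dashed line is the median of all tested genes, -0.02. The immediate early list reaches 2.12 at its right end, and the periosteal and cartilage lists have medians of -0.63 and -0.82.

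The same 5 mice allowed the shell to be set against the diaphysis. Egr1 averaged 173 ± 33.4 normalized counts in loaded and 89.2 ± 10.6 in control shells (SD, n = 5). Loaded proximal diaphyses averaged 368 ± 211 and their controls 116.1 ± 53.8, and loaded mid-diaphyses 384 ± 265 and their controls 164 ± 229. The log2 differences by mouse were 0.68, 0.76, 1.10, 0.68 and 1.46 for the shell, 3.77, 1.62, 1.77, 0.98 and -0.43 for the proximal segment and 1.75, 2.91, -0.31, 2.54 and 2.65 for the mid-diaphysis. The shell had the smaller mean and by far the narrower spread between mice. Shell minus proximal response was -0.61 ± 0.50 (limma, adjusted p = 0.924) and shell minus mid-diaphyseal response -0.97 ± 0.61 (limma, adjusted p = 1.00). The mean log2 difference of Fosb was 2.12 for the shell, against 3.79 for the proximal segment and 4.49 for the mid-diaphysis, with 5 of 5 mice higher in each. Its shell response differed by -1.67 ± 0.92 from the proximal (limma, adjusted p = 0.924) and by -2.37 ± 1.26 from the mid-diaphyseal one (limma, adjusted p = 1.00).

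No gene passed as differing in its response from the proximal segment, where limma called 0 of 11471 (0%) and 479 had an unadjusted p under 0.05 (4.18%). Against the mid-diaphysis it called 0 of 11542 (0%), with 137 at an unadjusted p under 0.05 (1.19%). The mid-diaphysis libraries were uneven, with muscle genes summing to between 221 and 18891 and mesothelial markers to as much as 1987. Without mouse 2, 20 genes were called against the mid-diaphysis, all lower in the shell response and most of them genes of the muscle fibre such as Mb, Ttn, Ckm and Acta1. Periostin was lower in the loaded limb of 5 of 5 mice in the proximal diaphysis too (mean -1.22), as was Thbs2 (-1.40), although most of those means came from mouse 5, at -3.93 and -4.69. The periosteal list had a median of -0.91 in that segment and 0.03 at mid-shaft. Spry2 was higher in 5 of 5 shells, although almost equal between the limbs in some mice as given above. It was lower in 5 of 5 proximal diaphyses (mean -0.88), a difference in response of 1.57 ± 0.64 (limma, adjusted p = 0.924).

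Across the 44 shell libraries, Egr1 and Fosb were each higher in the loaded shell of all mice at 1 h, which held at no other time. Egr1 had mean log2 differences of 0.93 at 1 h, 0.06 at 3 h, -0.46 at 24 h, 0.01 at 5d and 0.07 at 7d, and was lower in 4 of 4 loaded shells at 24 h. Its control level was 89.2 ± 10.6 at 1 h and between 46.6 and 62.3 on average at the other times, so the control limbs of the 1 h mice were also the highest. The difference at 1 h minus the mean of the other 4 times was 1.01 ± 0.24 over 22 mice, with an unadjusted p of 2.53e-04 and an adjusted p of 1.00 by limma. Fosb, at 15.2 ± 9.31 normalized counts in loaded shells at 1 h, averaged between 0.165 and 1.67 in loaded shells at the other times. Its signs there rest on values near 0, and at 3 h mice 1 and 3 had 0 in both limbs. In the comparison of 1 h with the mean of the other 4 times limma called 0 of 11358 genes (0%), and 258 had an unadjusted p under 0.05 (2.27%). Fosb was below the filter of that comparison and was not tested in it.

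Periosteal genes had differences of the other sign after repeated bouts, in other mice. The median log2 difference of the list was -0.63 at 1 h, 0.19 at 3 h, -0.12 at 24 h, 1.22 at 5d and 0.63 at 7d. Thbs2 averaged -0.77 at 1 h, 0.48 at 3 h, -0.36 at 24 h, 1.31 at 5d and 0.66 at 7d, and the 1 h difference minus the mean of the others was -1.29 ± 0.38 (unadjusted p = 0.00213; limma, adjusted p = 1.00). For Fmod it was -1.47 ± 0.44, for Postn -1.42 ± 0.47 and for Aspn -1.78 ± 0.63, each with an adjusted p of 1.00 by limma. Cartilage genes varied more, with list medians of -0.82 at 1 h, -1.93 at 3 h, -1.23 at 24 h, -0.15 at 5d and 0.84 at 7d.

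**Figure D4:**
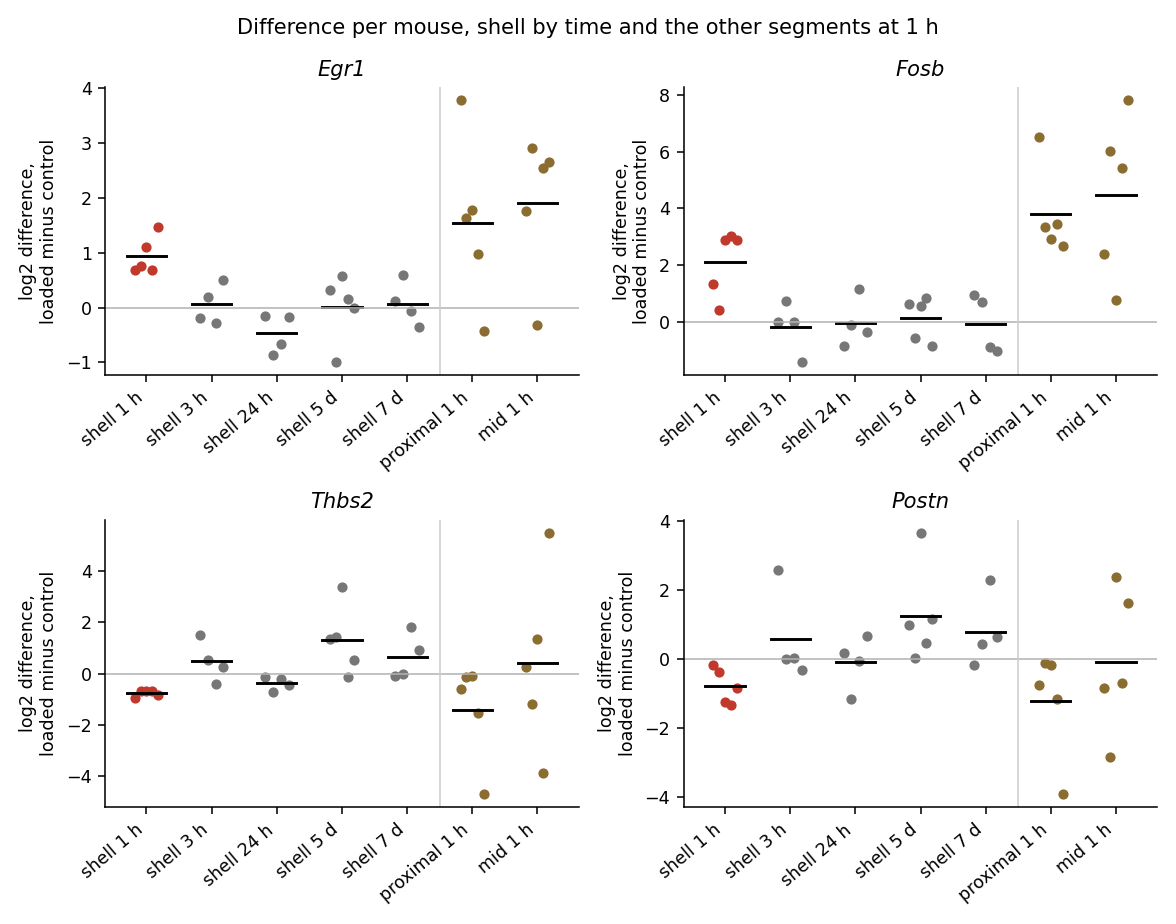
Log2 difference between loaded and control limbs of each mouse (points, vertical axes) and its mean (bars) for Egr1, Fosb, Thbs2 and Postn, in the shell at 1 h (red), in the shell at the other times (grey) and in the 2 diaphyseal segments at 1 h (brown). The red points of Egr1 and Fosb lie above 0 and those of Thbs2 and Postn below it, with a narrower spread than in the diaphysis.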

How the data were processed

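Per the labels, 3′ messenger RNA libraries were made from pulverised cortical bone. Alignment used STAR and mm10, with FastQC for quality and DESeq2 for normalization, per the submitters' processing notes, which give no versions, and the counting tool and annotation are not given in the sources used here. Each deposited value is a normalized count, a signal scaled by the authors, for 23412 symbols, 27 of which appear as dates. In the 10 shell libraries at 1 h all values were whole multiples of the value of 1 read within 0.02 of a read, so reads could be recovered by division. No column was left unmapped.

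Differences are of log2(normalized count + 1), loaded minus control, in limma 3.58.1 (R 4.3.3) with mouse as a block, variance trend, a mean of at least 5 over the 10 libraries, two-sided tests and Benjamini-Hochberg adjustment over all genes, with a threshold of 0.05. Adding 1 understates differences of low genes. Values after ± are moderated standard errors of limma, drawn toward a variance trend over all genes, unless SD is named. edgeR 4.0.16 was run on the recovered reads. Responses were compared between segments per mouse and between times over 22 mice. Limbs of a number are from the same animal, and their deviations from the group means correlated at 0.334 to 0.619, against a highest correlation with another mouse's limb of 0.351 to 0.580, which exceeded the own one in mice 1 and 4. Of 45 pairs of libraries 0 were identical. The method was also run on simulated data, and what it recovered there is not reported here.

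Genes were named by a rule, the 10 smallest p per direction with the same sign in 5 of 5 pairs and an average of 20 or more in whichever limb was higher, the 5 smallest p of each comparison of responses, up to 4 members of each list and a fixed panel, and those printed were picked from them. Other list members, Thbs4, Ogn, Tnn and Col16a1 were named after their values were seen. Some genes that the rule named are not reported here. Members and lists were chosen with earlier results of these data known. Coordinates are from GENCODE M21.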

Additional observations from a re-analysis of the deposited data

Results flagged for a closer look

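Among 57 genes in 2 groups of 5 shells each, 7 groups had a highest or lowest sample that stood apart by Dixon's test, where chance gives about 1 in 20. Mouse 3 was high in Col9a2 in its loaded shell (26.3), and in Fos (18.3) and Adamts1 (62.4) in its control shell. For Cdkn1a, the cell cycle inhibitor p21, mouse 4 was high in its loaded shell (644) and mouse 5 low in its control shell (260). Mouse 4 was low in Nr4a2 (35.8) and mouse 1 high in Il10ra (33.6) in control shells.

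For 17 of 342 pairings of a gene with another time or segment, every mouse at 1 h in the shell differed one way between limbs and every mouse there the other way. Many of the genes were picked for the same sign in 5 of 5 shells at 1 h. The share over all genes was not counted, so 17 is not shown to exceed chance. These single contrasts were not tested. No gene passed the test of 1 h against the mean of the other times or of shell against diaphysis. At 5d the mean log2 differences were 1.67 for Aspn, 1.26 for Postn, 1.86 for Col3a1, 0.91 for Ogn, 1.38 for Tnn and 1.40 for Col16a1, all lower at 1 h, and -0.44 for Col1a1, higher at 1 h. At 7d they were 1.21 for Fmod, 1.31 for Col3a1, 0.46 for Col12a1, 1.09 for Col16a1, 0.47 for Lef1 and 0.74 for Igf2, lower at 1 h, and -0.47 for Ppfia2, higher at 1 h. At 24 h it was -0.46 for Egr1. In the proximal diaphysis it was -0.88 for Spry2 and -0.93 for Col1a1, both higher in the shell, although Spry2 was almost equal between limbs in some mice there.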

How the results depend on the processing

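The count of genes passing in the shell stayed at 0 under added constants of 0.5 and 5, filters at 20 or none, other scalings, edgeR, 1 fit of 44 or all libraries, no replicate block, and leaving out each mouse (0 to 0). It was 2 with muscle level as a covariate, Egr1 (0.92) and Aspn (-0.91), the cause not being tested. Pairing by mouse did not change the count, and without the replicate block 123 genes had an unadjusted p under 0.05, against 554 with it. Fits of 44 shells gave 219 and of all libraries 3. Against the proximal diaphysis the count was 0 in every setting. Against the mid-diaphysis leaving out 1 mouse gave 0 to 20, the 20 without mouse 2, and 0 without mice 2 and 3. Against the other times it was 2 without a filter, both unnamed gene models, and 0 otherwise. Of genes with an unadjusted p under 0.05 in that comparison, 34.5% were higher, and 48.8% with scaling to the quantile at 75%. Of 902 values of single genes, 898 kept their sign. The others were Sost, at 0.0017 with that scaling and -0.34 to 0.11 leaving out 1 mouse. Many of these genes were picked for the same sign in 5 of 5 mice, where leaving out 1 mouse cannot turn the mean. The kept signs therefore follow largely from how genes were picked and are no test of them. Depth limits Fosb, with 12 control reads, whose log2 difference was 1.33 with 5 added and 2.57 in edgeR, against 2.12. Atf3, Spry2, Arc, Wnt1 and Tnfsf11 rest on similarly few reads.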

Other observations

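Of 10 tested members of the IGF axis 8 were negative, against 53.9% of all tested genes, with a median log2 difference of -0.18. Igf2, the fetal growth factor, differed by -0.93 ± 0.41 and its clearance receptor Igf2r by -0.29 ± 0.15, both lower in 5 of 5 mice (SE, n = 5 pairs), and 0 of the 10 passed the test. Without mouse 2 the difference of Igf2 was -0.44. Of 9 tested marrow adipocyte genes 8 were positive, against 46.1% of all tested genes, with a median of 0.19, led by the lipid droplet gene Plin1 at 0.58 ± 0.42. Of 7 tested B cell genes 5 were positive, and Vpreb3, a gene of B cell precursors, was higher in 5 of 5 mice (0.29 ± 0.15).

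The genes with the smallest p in the comparisons of responses were mostly not early or matrix genes. Meg3, an imprinted long noncoding RNA, averaged 39.5 ± 11.9 normalized counts in loaded and 56.4 ± 17.02 in control shells at 1 h (SD, n = 5), and its log2 difference was -0.51 at 1 h, 0.59 at 3 h, 0.15 at 24 h, 1.77 at 5d and 1.11 at 7d. The 1 h value minus the mean of the others was -1.42 ± 0.33 (limma, adjusted p = 1.00). Fmr1, the RNA-binding protein lost in fragile X syndrome, averaged 59.3 ± 16.7 in loaded and 67.4 ± 17.4 in control shells, against 92.96 ± 13.8 in loaded and 40.6 ± 9.55 in control proximal diaphyses. Its response differed by -1.38 ± 0.34 (limma, adjusted p = 0.924), with 5 of 5 proximal pairs higher. Stim1, a calcium sensor of the endoplasmic reticulum, was higher in 4 of 5 shells (0.21) and 5 of 5 proximal diaphyses (1.76), and the difference of -1.55 ± 0.41 likewise did not pass (limma, adjusted p = 0.924).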
